A study of Arabidopsis thaliana with 36 samples.

Results

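The transcripts described here are those of 10 nuclear genes for chloroplast proteins that act in the repair of photosystem II (PSII) and in the phosphorylation of thylakoid proteins. They were chosen by gene name and locus out of 37336 genes in the table, with earlier results of these data known. All 10 were among the 13817 genes that passed the filter of at least 1 reading above 7 RPKM (read counts scaled to transcript length and to the mapped reads of the library). They are the thylakoid FtsH protease genes FTSH1 (AT1G50250), FTSH5 (AT5G42270), FTSH2 (AT2G30950) and FTSH8 (AT1G06430), the lumenal protease gene DEG1 (AT3G27925), the kinase genes STN7 (AT1G68830) and STN8 (AT5G01920), the phosphatase gene PPH1 (AT4G27800, also called TAP38), and the PSII assembly and repair genes PSB27 (AT1G03600) and LQY1 (AT1G75690).

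Messenger RNA was sequenced from fully expanded leaves of wild-type Arabidopsis thaliana of the ecotypes WS (Wassilewskija) and Col-0 (Columbia-0), at 0, 15, 30, 60, 120 or 240 min of a photon flux density (PFD) of 500, after growth at a PFD of 120 (both in μmol photons per square metre and second). The plants had been grown in a 12 h photoperiod at 23 °C by day and 20 °C by night. Each of the 12 groups of ecotype and time held 3 libraries (36 in all), which are numbered here by replicate and were taken to come from the same 3 plants of an ecotype at every time. Reads in genes ranged from 7.35 M in WS 0 min replicate 1 to 41.7 M, and at least 567 reads stood behind every value given for the 10 genes. All differences from 0 min hold the change of light, the time of day, the repeated removal of leaves and any move into the measuring chamber together, since no library was kept in growth light after 0 min, and these cannot be told apart. WS reads were mapped to the Col-0 genome. Leaf identity was checked by marker genes: the mesophyll transcripts RBCS1A, RCA, LHCB3 and CAB had at least 715 RPKM in every library, and the root transcripts CASP1, COBL9 and EXP7 had at most 0.24 RPKM. Earlier results of these data had set 4 libraries apart, replicate 1 of Col-0 at 60 and at 120 min, replicate 3 of WS at 120 min and replicate 1 of WS at 0 min, and the calls lost or gained without all 4 are given beside the results.

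PSII is damaged by light, most often at its D1 protein, and a repair cycle takes the damaged complex apart, degrades D1, inserts a new copy and reassembles the complex. The FtsH protease that degrades D1 in the thylakoid membrane is a ring of type A subunits (FTSH1 and FTSH5) and type B subunits (FTSH2 and FTSH8), and DEG1 cuts D1 from the lumen side. STN8 phosphorylates PSII core proteins and STN7 phosphorylates the light-harvesting proteins of LHCII, by which antenna is moved between the photosystems, and PPH1 removes the phosphate from LHCII. PSB27 is a lumenal protein that binds PSII during assembly and repair, and LQY1 is a thylakoid zinc-finger protein that takes part in repair.

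The FTSH genes are close copies within a type, and it matters for their values whether a read of 50 bases can be placed. The 90 coding bases around the zinc-binding site of the protease are shown for the 4 genes, 5′ to 3′ on the coding strand, with the 15 bases of the site in capitals. They were read from RefSeq's TAIR10.1, the same chromosomes as the authors' TAIR10. The FTSH1 stretch lies on chromosome 1 between 18615125 and 18615301 (minus strand), that of FTSH5 on chromosome 5 between 16904235 and 16904405 (plus strand), that of FTSH2 on chromosome 2 between 13176202 and 13176377 (plus strand) and that of FTSH8 on chromosome 1 between 1960868 and 1961031 (minus strand), and each is exonic and spans an intron that is left out here.
FTSH1: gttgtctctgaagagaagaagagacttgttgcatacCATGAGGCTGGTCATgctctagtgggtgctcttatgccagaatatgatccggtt
FTSH5: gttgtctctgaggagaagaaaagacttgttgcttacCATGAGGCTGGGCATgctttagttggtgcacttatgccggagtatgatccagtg
FTSH2: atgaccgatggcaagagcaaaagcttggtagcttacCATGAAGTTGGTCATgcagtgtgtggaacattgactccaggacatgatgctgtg
FTSH8: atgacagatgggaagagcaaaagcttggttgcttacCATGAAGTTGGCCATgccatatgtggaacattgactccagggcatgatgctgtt
Over these bases FTSH1 and FTSH5 differed at 11 positions and FTSH2 and FTSH8 at 9, against 33 to 37 between a type A and a type B gene. Over the whole coding sequences the type A pair was identical at 82.5% of 2091 aligned bases and the type B pair at 87.2% of 2046. No stretch of 50 coding bases was shared within either pair, and the longest shared runs were 35 bases (FTSH1 and FTSH5) and 41 bases (FTSH2 and FTSH8). A full read of 50 bases without mismatches could therefore be placed in these coding sequences. The reads were trimmed before alignment, and one trimmed to the length of these runs or less could match both copies. Untranslated exons were not compared. How reads with mismatches, and WS reads, were placed is not given in the sources used here.

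In growth light the transcript amounts of the 10 genes covered about an order of magnitude. In WS at 0 min the means fell in the order PSB27 (539 RPKM), LQY1 (377), FTSH5 (357), FTSH2 (341), FTSH1 (135), STN7 (121), FTSH8 (99.4), DEG1 (98.8), PPH1 (69.2) and STN8 (40.1). In Col-0 the order was FTSH5 (500.0 RPKM), PSB27 (399), FTSH2 (348), LQY1 (321), FTSH1 (223), FTSH8 (152), DEG1 (108.5), STN7 (103), PPH1 (78.4) and STN8 (49.0). In WS the libraries of neighbours in this order overlapped except between FTSH2 and FTSH1, between DEG1 and PPH1 and between PPH1 and STN8, and in Col-0 except between LQY1 and FTSH1, between STN7 and PPH1 and between PPH1 and STN8. None of the 10 genes differed between WS and Col-0 at 0 min by limma's moderated test, where 6.59% of all genes tested did. At an unadjusted p under 0.05 there were 2, by voom on recovered reads there were none (0), and FTSH1 came nearest. FTSH1 had 63.3, 180 and 163 RPKM in WS, against 215, 175 and 279 RPKM in Col-0 (log2 difference -0.83 ± 0.29 SE, adjusted p = 0.087 by limma). The ranges overlapped, and without WS 0 min replicate 2, the highest WS value, the difference was called, at -1.10 on the log2 scale. The lowest WS value, 63.3 RPKM, was that of WS 0 min replicate 1, the library with the fewest reads. The other WS values, 180 and 163 RPKM, lay nearer to those of Col-0, so the size of this difference rests in part on that library.

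**Figure D1:**
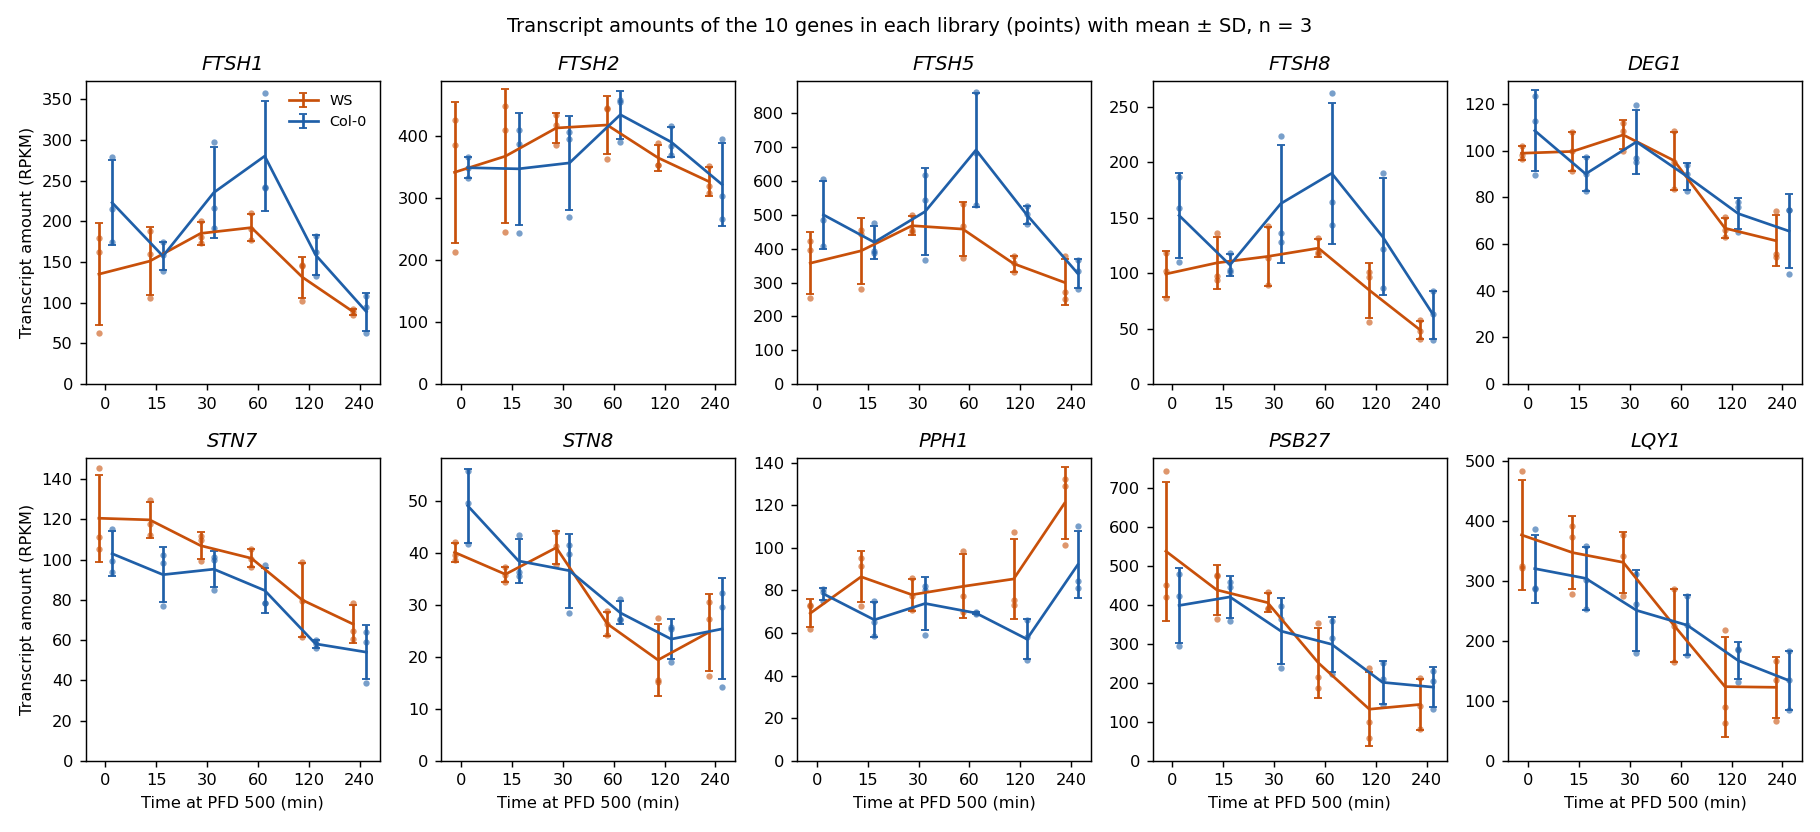
Transcript amounts (RPKM, from 0) of the 10 genes against time at PFD 500, in WS (orange) and Col-0 (blue). Points are libraries, lines join means, and bars are SD (n = 3). STN7, STN8, DEG1, PSB27 and LQY1 were lower at 120 and 240 min, FTSH1 and FTSH8 had their lowest means at 240 min, and PPH1 had its highest mean at 240 min in both ecotypes.

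No change of the 10 genes was called in the first 30 min. Compared with 0 min, none was called at 15 min (2.72% of all genes tested were called in WS and 3.1% in Col-0) or at 30 min (8.74% in WS and 6.85% in Col-0), and in each of these comparisons 0 of the 10 had an unadjusted p under 0.05 by limma and 0 were called by voom. At 60 min 1 gene was lower in WS (10% of all genes were called lower) and 1 in Col-0 (6.44%). At 120 min 5 were lower in WS (17.3%) and 6 in Col-0 (15.7%). At 240 min 6 were lower in WS (10.1%) and 8 in Col-0 (13.1%), and 1 was higher in WS (14.5% called higher). The median log2 difference of the 10 genes was -0.41 in WS and -0.52 in Col-0 at 120 min, and -0.71 in WS and -0.97 in Col-0 at 240 min, when the median of all genes tested lay between 0.04 and 0.10. Means more than 2-fold below 0 min were reached at some time by 4 genes in WS (FTSH8, STN8, PSB27 and LQY1, against 15.8% of all genes) and by 5 in Col-0 (the same 4 and FTSH1, against 14.9%), and none lay more than 2-fold above. With TPM values (each library scaled to the same sum over length-corrected reads) the median of all genes was higher by 0.107 in WS at 120 min, by 0.251 in WS at 240 min and by 0.182 in Col-0 at 240 min. The share of calls that were higher was then 65.9% in WS at 120 min (57.3% with RPKM), 79.3% in WS at 240 min (58.9%) and 72.1% in Col-0 at 240 min (56.5%). At 240 min 860 genes were then called lower in WS (1397 with RPKM) and 1230 in Col-0 (1807). Of the 10, FTSH8 and STN8 were no longer called in WS at 240 min, nor FTSH5 and PSB27 in Col-0. By voom 6 of the 10 were called in each ecotype at 240 min, in either direction.

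**Figure D2:**
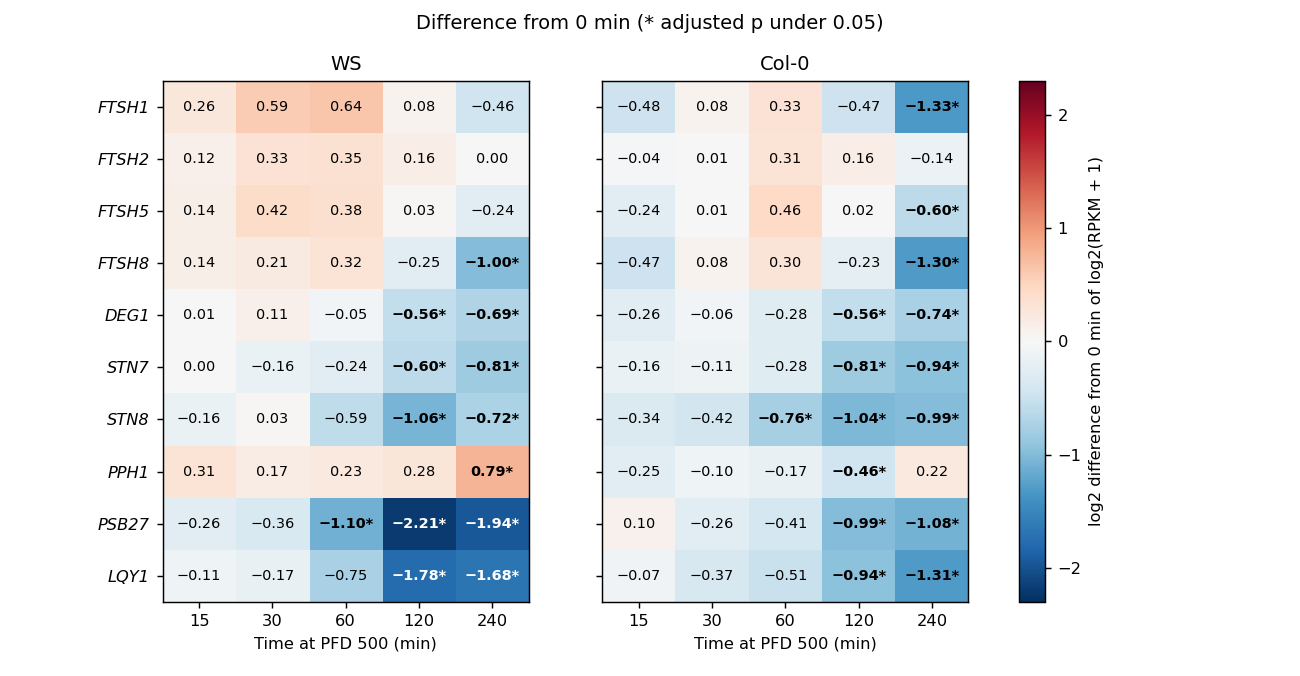
Log2 difference from 0 min, on the scale of log2(RPKM + 1), of each gene (rows) at each time (columns) in WS (left) and Col-0 (right). Blue is lower and red higher than 0 min, and an asterisk marks an adjusted p under 0.05. All marked differences are at 60 min or later, and the PPH1 value of 0.79 in WS at 240 min is the marked one above 0.

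PSB27 and LQY1, the assembly and repair genes, were the most reduced of the 10 in WS. At 120 min PSB27 had 99.4, 59.0 and 239 RPKM in WS, against 744, 452 and 421 RPKM at 0 min. All libraries at 120 min were below all at 0 min, with WS 120 min replicate 3 the highest of them, and the mean was 75.4% lower (log2 difference -2.21 ± 0.38 SE, adjusted p = 5.1e-05). Without WS 120 min replicate 3 the log2 difference was -2.75, and without WS 0 min replicate 1 it was -1.95. In Col-0 PSB27 had 252, 210.4 and 142 RPKM at 120 min, against 480.4, 423 and 294 RPKM at 0 min, again without overlap (49.5% lower, -0.99 ± 0.38 SE, adjusted p = 0.042). At 240 min PSB27 averaged 145 ± 65 RPKM in WS and 189 ± 51 RPKM in Col-0 (SD, n = 3 each), which was 73.1% lower than 0 min in WS (adjusted p = 0.00036) and 52.6% lower in Col-0 (adjusted p = 0.032). PSB27 was the gene called in WS at 60 min, with 354, 186 and 215 RPKM (log2 difference -1.10 ± 0.38 SE, adjusted p = 0.031). That call was lost on leaving out replicate 1 of WS at 0 min (-0.85), or replicate 2 (-0.92) or 3 (-1.02) of WS at 60 min, without any single WS plant (-1.17 to -1.02), without the 4 libraries set apart (-0.85), and, at the same difference, with no filter or each ecotype alone. The Col-0 calls were lost without Col-0 0 min replicate 1 (-0.84 at 120 min and -0.93 at 240 min) or 2 (-0.94 and -1.02), without Col-0 120 min replicate 2 (-1.04) or 3 (-0.76) and without Col-0 240 min replicate 1 (-0.84). They were also lost with no filter (adjusted p = 0.072 at 120 min and 0.053 at 240 min), at 120 min without any single Col-0 plant (-1.025 to -0.966) and at 240 min without plant 1 (-0.70) or 2 (-1.10). With TPM values and with voom the Col-0 difference at 240 min was no longer called (-0.88 and -0.86). The WS calls of PSB27 at 120 and 240 min remained in every alternative run.

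LQY1 moved with PSB27. At 120 min it had 89.5, 62.7 and 219 RPKM in WS, against 484, 325 and 322 RPKM at 0 min (67.2% lower, log2 difference -1.78 ± 0.36 SE, adjusted p = 0.00033). WS 120 min replicate 3 was again the highest at that time but lay below every library at 0 min, and without it the log2 difference was -2.29. In Col-0 LQY1 had 185, 186 and 131 RPKM at 120 min, against 386, 287 and 289 RPKM at 0 min (47.9% lower, -0.94 ± 0.36 SE, adjusted p = 0.043). This call was lost without any single library of Col-0 0 min (-1.01 to -0.80) and without Col-0 120 min replicate 2 (-1.02) or 3 (-0.77), without any single Col-0 plant (-1.10 to -0.84), and with no filter (adjusted p = 0.072). At 240 min LQY1 averaged 123 ± 51 RPKM in WS (67.5% lower than 0 min, adjusted p = 0.00092) and 134 ± 49 RPKM in Col-0 (58.3% lower, adjusted p = 0.0068, lost without Col-0 240 min replicate 1, at -1.01, or Col-0 plant 1, at -0.87). The ratio of PSB27 to LQY1 stayed between 1.05 and 1.45 in all 12 group means, and the Pearson r of their group means of log2(RPKM + 1) was 0.983, the highest of the 45 pairs. These 12 means share libraries and their depth, so that r is a description.

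STN7, the LHCII kinase, was lower from 120 min in both ecotypes. It had 98.6, 79.6 and 61.4 RPKM in WS at 120 min, against 111, 105 and 145 RPKM at 0 min (33.7% lower, log2 difference -0.60 ± 0.18 SE, adjusted p = 0.0083). At 240 min it had 64.7, 78.4 and 60.6 RPKM in WS (43.7% lower, -0.81 ± 0.18 SE, adjusted p = 0.0011). In Col-0 it had 55.9, 60.2 and 58.2 RPKM at 120 min and 38.8, 59.0 and 64.1 RPKM at 240 min, against 99.5, 115 and 93.8 RPKM at 0 min. The Col-0 means were 43.5% lower at 120 min (adjusted p = 0.00083) and 47.5% lower at 240 min (adjusted p = 0.00022). No library at these times reached the lowest at 0 min of its ecotype. The WS call at 120 min was lost on leaving out replicate 3 at 0 min (-0.46) or replicate 3 at 120 min (-0.43). Without the plant numbered WS replicate 3 the WS difference was -0.28 at 120 min and -0.60 at 240 min, neither called. Without the 4 libraries set apart the WS difference at 120 min was -0.48 (adjusted p = 0.066). The Col-0 calls of STN7 against 0 min remained in every alternative run.

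STN8, the PSII core kinase and the gene with the lowest transcript amount of the 10, was the one called in Col-0 at 60 min. It had 31.0, 27.0 and 27.2 RPKM in Col-0 at 60 min, against 55.8, 41.6 and 49.6 RPKM at 0 min (42.0% lower, log2 difference -0.76 ± 0.24 SE, adjusted p = 0.03). In WS it had 28.7, 24.1 and 26.2 RPKM at 60 min, against 39.6, 42.1 and 38.6 RPKM at 0 min, likewise without overlap, but the difference of -0.59 was not called by limma and was called by voom (-0.77, adjusted p = 0.021) and with TPM values (-0.68, adjusted p = 0.025). At 120 min STN8 averaged 19.4 ± 6.9 RPKM in WS (51.6% lower than 0 min, adjusted p = 0.00095) and 23.4 ± 3.8 RPKM in Col-0 (52.3% lower, adjusted p = 0.0014), and both calls remained in every alternative run. At 240 min it had 30.4, 16.4 and 27.3 RPKM in WS (-0.72 ± 0.24 SE, adjusted p = 0.027) and 14.2, 29.5 and 32.3 RPKM in Col-0 (-0.99 ± 0.24 SE, adjusted p = 0.0025). The WS call at 240 min was lost on leaving out replicate 1 (-0.73) or 2 (-0.69) of WS at 0 min or replicate 2 of WS at 240 min (-0.46), without WS plant 2 (-0.43) or 3 (-0.84), with TPM values (-0.46) and with voom (-0.51). The Col-0 call at 60 min was lost without Col-0 0 min replicate 1 (-0.66) or 3 (-0.74) and without Col-0 60 min replicate 2 (-0.72) or 3 (-0.73), without any single Col-0 plant (-0.834 to -0.715) and with each ecotype alone (adjusted p = 0.068). The WS step from 60 to 120 min was not called, but was without WS 120 min replicate 3 (-0.74, adjusted p = 0.037) and without the 4 libraries set apart (-0.74, adjusted p = 0.042). The Col-0 call at 240 min was lost without the plant numbered replicate 1 (-0.54). STN8 overlaps AT5G01930 on the other strand over 230 bases (12.1% of its exons), and that gene had means of 5.01 to 10.1 RPKM. Whether reads of the overlap were told apart by strand is not given in the sources used here.

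PPH1, the LHCII phosphatase, was the only one of the 10 called higher than 0 min. At 240 min it had 101, 132 and 129 RPKM in WS, against 73.3, 61.7 and 72.7 RPKM at 0 min. Every library at 240 min was above every one at 0 min, and the mean was 1.75 times that at 0 min (log2 difference 0.79 ± 0.17 SE, adjusted p = 0.0012). This call remained without any single library and in all 10 other alternatives, and was lost without WS replicate 2 (0.64). In Col-0 PPH1 had 84.6, 110.1 and 81.3 RPKM at 240 min, against 79.3, 75.2 and 80.7 RPKM at 0 min, which did not overlap but were not called apart (log2 difference 0.22, adjusted p = 0.38). Before that, at 120 min, Col-0 had 66.0, 58.1 and 47.3 RPKM, below all libraries at 0 min (27.1% lower, -0.46 ± 0.17 SE, adjusted p = 0.039). That call was lost without any single library of Col-0 0 min (-0.49 to -0.44) and without Col-0 120 min replicate 2 (-0.48) or 3 (-0.33) and without any single Col-0 plant (-0.56 to -0.31). WS had 107, 75.6 and 73.3 RPKM at 120 min, which was not called. The step from 120 to 240 min was called higher in both ecotypes, by 0.51 ± 0.17 SE in WS (adjusted p = 0.036, 10.3% of all genes called higher) and by 0.68 ± 0.17 SE in Col-0 (adjusted p = 0.015, 6.64% called higher). The WS step was lost on leaving out replicate 2 (0.43) or 3 (0.41) at 120 min or replicate 2 (0.44) or 3 (0.46) at 240 min, without plant 2 (0.36) or 3 (0.36), without the 4 libraries set apart (0.41, adjusted p = 0.099) and with each ecotype alone (0.51, adjusted p = 0.051). The Col-0 step was lost without Col-0 120 min replicate 3 (0.55), Col-0 240 min replicate 2 (0.54) or plant 2 (0.56) or 3 (0.63). PPH1 overlaps AT4G27790 on the other strand over 197 bases, and the means of that gene were at most 0.0467 RPKM.

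Within each library the ratio of the kinase to its opposing phosphatase, STN7 to PPH1, was lowest at 240 min. In WS the ratio averaged, in the order of the 6 times, 1.74, 1.402, 1.38, 1.25, 0.937 and 0.567. In Col-0 it averaged 1.32, 1.399, 1.302, 1.22, 1.04 and 0.594 in the same order. At 240 min it was 0.638, 0.593 and 0.470 in WS, against 1.52, 1.70 and 2.00 at 0 min, and 0.458, 0.536 and 0.788 in Col-0, against 1.25, 1.53 and 1.16 at 0 min. No library at 240 min overlapped those at 0 min of its ecotype, and with 3 libraries a group an exact permutation test cannot go below p = 0.1. A ratio within a library does not depend on how the library was scaled. The ratio of STN8 to STN7 showed no such course, with group means of 0.262 to 0.384 in WS and 0.341 to 0.484 in Col-0. The ratio of STN8 to PBCP, a further phosphatase gene, averaged 0.719 in WS and 0.873 in Col-0 at 240 min. At 0 min it averaged 0.984 in WS and 1.37 in Col-0. The libraries of these times overlapped in WS and did not in Col-0, so a lower ratio of kinase to phosphatase was not seen for STN7 and PPH1 alone.

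**Figure D3:**
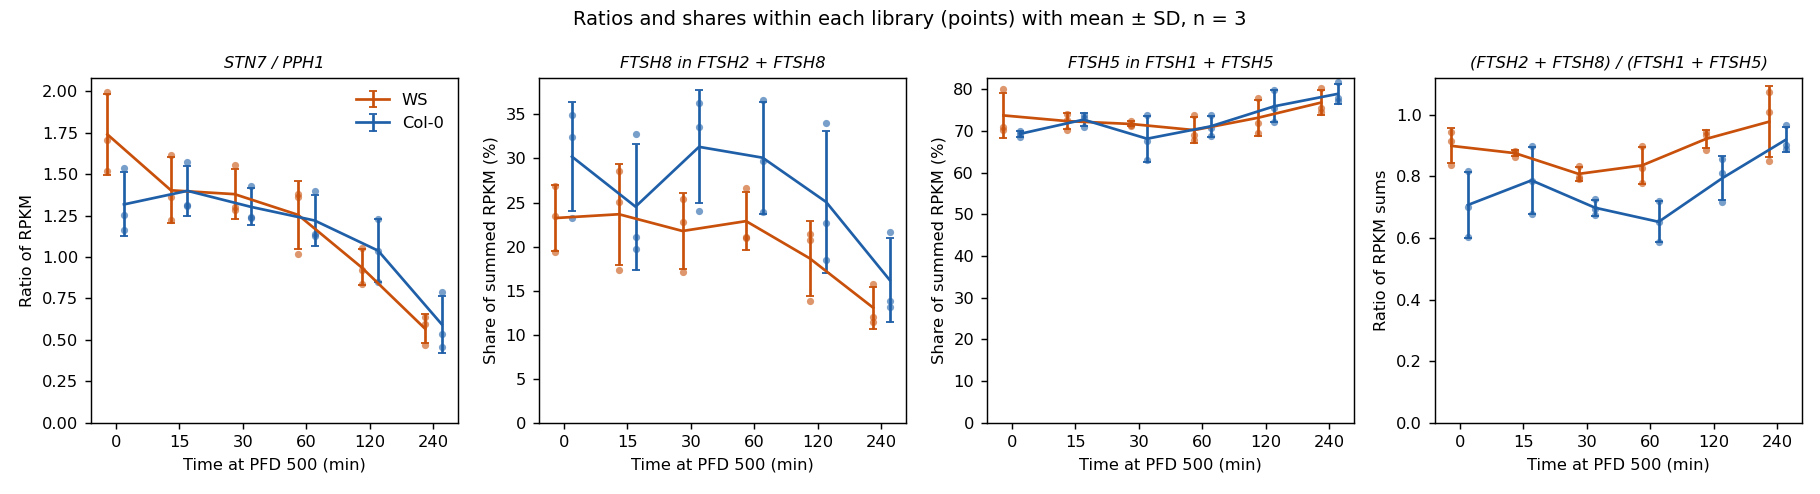
From left to right: the ratio of STN7 to PPH1, the share of FTSH8 in FTSH2 plus FTSH8, the share of FTSH5 in FTSH1 plus FTSH5, and the ratio of type B to type A sums, against time at PFD 500. Points are libraries of WS (orange) and Col-0 (blue), lines join means, bars are SD (n = 3), and all axes start at 0. The STN7 to PPH1 ratio and the FTSH8 share had their lowest means at 240 min in both ecotypes.

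Among the FTSH genes, both type A copies (FTSH1 and FTSH5) and the less abundant type B copy (FTSH8) were called lower at 240 min in Col-0. In WS FTSH8 alone was called. The copies were not tested against each other. FTSH8, the minor type B gene, had 47.8, 57.6 and 41.2 RPKM in WS at 240 min, against 77.8, 118 and 102 RPKM at 0 min (50.9% lower, log2 difference -1.002 ± 0.303 SE, adjusted p = 0.015). In Col-0 it had 40.1, 63.3 and 83.7 RPKM at 240 min, against 159, 110.5 and 187 RPKM at 0 min (59.0% lower, -1.30 ± 0.30 SE, adjusted p = 0.0018). The libraries did not overlap in either ecotype. The WS call was lost on leaving out replicate 2 at 0 min (-0.87) or replicate 3 at 240 min (-0.89), without WS plant 2 (-0.99) or 3 (-0.86) and with TPM values (-0.74), and the Col-0 call remained in every alternative run. FTSH1, the minor type A gene, had 63.3, 108 and 95.3 RPKM in Col-0 at 240 min, against 215, 175 and 279 RPKM at 0 min (60.1% lower, -1.33 ± 0.29 SE, adjusted p = 0.00094), and this call also remained in every alternative run. In WS it had 92.7, 88.7 and 85.4 RPKM at 240 min, against 63.3, 180 and 163 RPKM at 0 min, where WS 0 min replicate 1, the library with the fewest reads, lay below all libraries at 240 min. The WS difference of -0.46 was not called, and without that library it was -0.94 and called (adjusted p = 0.0097), as it was without the 4 libraries set apart (adjusted p = 0.0071) or WS plant 1 (-0.97, adjusted p = 0.018).

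FTSH5 and FTSH2 are the abundant copies. FTSH5 had 281, 366 and 334 RPKM in Col-0 at 240 min, against 485, 408 and 607 RPKM at 0 min (34.6% lower, -0.60 ± 0.23 SE, adjusted p = 0.049). That call lay at the threshold and was lost in 6 of the 10 other alternatives and without Col-0 0 min replicate 1 (-0.61) or 3 (-0.45) or any single library of Col-0 240 min (-0.69 to -0.50) and without Col-0 plant 1 (-0.51) or 3 (-0.47). In WS FTSH5 had 377, 273 and 250.4 RPKM at 240 min, against 253, 423 and 395 RPKM at 0 min, which overlapped and were not called apart (log2 difference -0.24, and 0.03 with TPM values). The overlap came from WS 0 min replicate 1 (253 RPKM), and the other WS libraries at 0 min lay above all at 240 min. By plant the log2 change was 0.57 for replicate 1, -0.63 for replicate 2 and -0.66 for replicate 3. FTSH2, whose loss gives variegated leaves, was called at no time in either ecotype. Its means in WS were 341, 367, 412, 417, 364 and 326 RPKM in the order of the 6 times, and in Col-0 348, 346, 356, 433.5, 389.5 and 321 RPKM. In Col-0 the FTSH2 libraries at 60 and 120 min lay above all at 0 min, by 0.31 and 0.16 on the log2 scale. All 4 FTSH genes had higher means at 60 min than at 0 min in both ecotypes (log2 differences of 0.30 to 0.64), none of them called. In WS most of this rested on WS 0 min replicate 1, without which the differences were 0.17 for FTSH1, 0.04 for FTSH2, 0.15 for FTSH5 and 0.16 for FTSH8. FTSH8 made up 12.0, 15.8 and 11.4% of the type B sum in WS at 240 min, against 26.9, 23.5 and 19.4% at 0 min. In Col-0 it made up 13.1, 13.8 and 21.7% at 240 min, against 32.5, 23.2 and 35.0% at 0 min. FTSH5 made up 81.6, 77.2 and 77.8% of the type A sum in Col-0 at 240 min, against 69.3, 70.0 and 68.5% at 0 min, and 80.3, 75.5 and 74.6% in WS, against 80.0, 70.2 and 70.9%, where WS 0 min replicate 1 again stood apart. The ratio of type B to type A sums averaged 0.977 ± 0.115 in WS and 0.918 ± 0.041 in Col-0 at 240 min, against 0.898 ± 0.056 in WS and 0.707 ± 0.107 in Col-0 at 0 min (SD, n = 3).

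DEG1, the lumenal protease, was lower at 120 and 240 min in both ecotypes. It had 63.0, 65.8 and 71.4 RPKM in WS at 120 min and 55.6, 54.6 and 73.9 RPKM at 240 min, against 98.1, 102 and 96.4 RPKM at 0 min. In Col-0 it had 78.0, 75.7 and 65.3 RPKM at 120 min and 47.2, 74.6 and 74.7 RPKM at 240 min, against 123, 89.6 and 113 RPKM at 0 min. No library at 120 or 240 min reached the lowest at 0 min. The means were 32.5% lower in WS (adjusted p = 0.0064) and 32.7% lower in Col-0 (adjusted p = 0.0077) at 120 min, and 37.9% lower in WS (adjusted p = 0.0019) and 39.7% lower in Col-0 (adjusted p = 0.00093) at 240 min. The Col-0 call at 120 min was lost without Col-0 0 min replicate 1 (-0.46), and the other 3 remained without any single library. Without a whole plant, the WS calls were lost at 120 min without replicate 1 (-0.53) or 2 (-0.53) and at 240 min without replicate 2 (-0.59), and the Col-0 calls at 120 min without replicate 3 (-0.45) and at 240 min without replicate 1 (-0.42).

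Between neighbouring times, no change of the 10 genes was called from 15 to 30 min (0.109% of all genes in WS and 0.0145% in Col-0) or from 30 to 60 min (4.91% in WS and 0.0% in Col-0). In these 4 steps limma gave an unadjusted p under 0.05 to 1 gene in WS from 30 to 60 min and to 0 in the others, and voom called 0. From 60 to 120 min 3 genes were lower in WS (7.11% called lower), DEG1 (-0.51 ± 0.16 SE, adjusted p = 0.026), PSB27 (-1.10 ± 0.38 SE, adjusted p = 0.044) and LQY1 (-1.03 ± 0.36 SE, adjusted p = 0.047), and 1 was lower in Col-0 (6.55%), STN7 (-0.53 ± 0.18 SE, adjusted p = 0.04). All 10 genes had a lower mean log2 value at 120 than at 60 min in Col-0 and 9 in WS. From 120 to 240 min FTSH1 (-0.85 ± 0.29 SE, adjusted p = 0.05 after rounding) and FTSH8 (-1.07 ± 0.30 SE, adjusted p = 0.023) were lower in Col-0 (5.81% called lower). None of these 6 lower steps was safe against single libraries, each being lost without at least 4 of its 6 libraries, with log2 differences of -1.34 to -0.41 over the fits with 1 library left out or 1 plant left out for DEG1, STN7, FTSH1 and FTSH8, and of -1.73 to -0.64 for PSB27 and LQY1. Without the 4 libraries set apart the STN7 step was not called (-0.55, adjusted p = 0.057), and FTSH1 was lower from 60 to 120 min in Col-0 (-0.77, adjusted p = 0.038) and from 120 to 240 min in WS (-0.71, adjusted p = 0.025), as was FTSH8 in that WS step (-1.02, adjusted p = 0.0099). DEG1, STN7, STN8, PSB27 and LQY1 were called by 120 min in both ecotypes, while FTSH1, FTSH5 and FTSH8 were not called before 240 min in either. The timing of these genes was not tested between them. In Col-0 at 120 min FTSH1 was at -0.47, FTSH8 at -0.23 and FTSH5 at 0.02, all not called, and DEG1 was called at -0.56.

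The responses of the ecotypes were compared by an interaction term, WS minus Col-0. None of the 10 genes was called at 15 min (0.0145% of all genes), 30 min (0.00724%), 60 min (0.232%), 120 min (0.13%) or 240 min (0.0941%) by limma, and 0 were called by voom. At an unadjusted p under 0.05 there were 1, 0, 0, 2 and 2 genes at these times. The 2 at 120 min were PPH1 (0.74, 95% interval 0.24 to 1.25, adjusted p = 0.4) and PSB27 (-1.21, 95% interval -2.32 to -0.11, adjusted p = 0.66), and those at 240 min were PPH1 (0.57, 0.07 to 1.08) and FTSH1 (0.86, 0.03 to 1.70), both with an adjusted p of 0.95 or above. With all libraries the FTSH1 change at 240 min was -0.46 in WS and -1.33 in Col-0. Without WS 0 min replicate 1, the library with the fewest reads, the WS change was -0.94, nearer to that of Col-0. Over the 10 genes the 95% intervals reached 0.462 to 1.102 to either side on the log2 scale, and the interval held a 2-fold difference at 1 or more times for 8 of the 10, all but DEG1 and STN7.

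The 10 genes were set beside other genes of the same processes. Of 12 other FTSH genes tested, 2 were lower at 120 min in each ecotype, close to the share of all genes called lower (17.3% in WS and 15.7% in Col-0), with a list median of -0.15 in WS and -0.02 in Col-0. They were FTSH9 and FTSH11. FTSH9 had 35.3, 29.4 and 23.7 RPKM in WS at 120 min, against 68.4, 74.8 and 85.1 RPKM at 0 min, and 29.4, 27.7 and 31.1 RPKM in Col-0, against 83.8, 91.8 and 89.3 RPKM at 0 min (adjusted p = 3.8e-06 in WS and 1e-06 in Col-0). FTSH11 had 67.9, 57.6 and 61.1 RPKM in WS at 240 min, against 51.6, 75.3 and 79.4 RPKM at 0 min, after 15.6, 19.0 and 30.8 RPKM at 120 min, and in Col-0 it was lower at 240 min (44.7 RPKM against 71.7 RPKM at 0 min, adjusted p = 0.041). FTSH10, a mitochondrial protease gene, was higher at 60 min in both ecotypes (2.58 times in WS with adjusted p = 0.012, and 2.52 times in Col-0 with adjusted p = 0.028), and FTSHI3 had no call. FTSH6 had at most 0.11 RPKM and was not tested.

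Of 6 other DEG and CTPA protease genes tested, 3 were lower at 120 min in WS and 2 in Col-0, where 17.3% of all genes were in WS and 15.7% in Col-0 (list medians of -0.83 in WS and -0.60 in Col-0). At 240 min 0 were lower in WS (10.1% of all genes) and 1 was higher (14.5%), while 1 was lower in Col-0 (13.1%). The list medians were then -0.19 in WS and -0.35 in Col-0. CTPA2, of the protease family that trims the D1 precursor, averaged 13.5 RPKM in WS at 120 min, against 26.4 RPKM at 0 min (adjusted p = 0.00064), and 15.3 RPKM in Col-0, against 25.4 RPKM (adjusted p = 0.014). CTPA3 averaged 11.1 RPKM in WS, against 21.5 RPKM (adjusted p = 0.00021), and 11.8 RPKM in Col-0, against 22.4 RPKM (adjusted p = 0.00044). At 240 min CTPA2 was called lower in Col-0 alone, and CTPA3 in neither ecotype. DEG5 and DEG8 code for partners in a lumenal protease that acts on D1. DEG5 averaged 24.96 RPKM in WS at 120 min, against 41.1 RPKM at 0 min (adjusted p = 0.016), with WS 120 min replicate 3 at 40.6 RPKM inside the range at 0 min. In Col-0 DEG5 was not called at 120 min, and at 240 min it was called in neither ecotype. DEG8 had 85.2, 79.8 and 99.8 RPKM in WS at 240 min, against 52.8, 45.9 and 53.8 RPKM at 0 min (adjusted p = 0.0073). In Col-0 DEG8 averaged 41.4 RPKM at 240 min, against 41.6 RPKM at 0 min, and the interaction at 240 min was 0.79 ± 0.30 SE (adjusted p = 0.78, not called). CTPA1 had at most 5.86 RPKM and was not tested.

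Of 21 other PSII assembly and repair genes, 14 were lower at 120 min in WS (17.3% of all genes) and 7 in Col-0 (15.7%), and at 240 min 6 in WS (10.1%) and 9 in Col-0 (13.1%), with none higher (list medians of -0.70 in WS and -0.43 in Col-0 at 120 min, and -0.56 in WS and -0.63 in Col-0 at 240 min). HCF173, which is needed for translation of the D1 messenger, had 28.7, 18.5 and 22.2 RPKM in WS at 120 min, against 126, 108 and 131 RPKM at 0 min (81.0% lower, adjusted p = 5.6e-08), and 24.9, 25.7 and 24.1 RPKM in Col-0, against 160, 136 and 151 RPKM at 0 min (83.3% lower, adjusted p = 7.6e-08). TLP18.3, HHL1 and RBD1 were also lower at 120 min in both ecotypes, TLP18.3 by 62.6% in WS and 46.4% in Col-0, HHL1 by 52.6% in WS and 35.1% in Col-0, and RBD1 by 59.4% in WS and 48.8% in Col-0. At 240 min TLP18.3 and HHL1 were still called lower in both ecotypes, and RBD1 in neither. Of 19 genes for a further phosphatase, a kinase and substrates that were tested, 13 were lower at 120 min in WS and 9 in Col-0, and 13 in WS and 10 in Col-0 at 240 min, against the same shares of all genes, with 1 higher in WS at 240 min (14.5% of all genes), PGRL1B (69.9 against 44.6 RPKM, chosen after its values were seen). LHCB4.2, a minor antenna protein, had 93.0, 45.9 and 417 RPKM in WS at 120 min, against 1986, 1647 and 1788 RPKM at 0 min, and 370, 336 and 78.4 RPKM in Col-0, against 1882, 2109 and 921 RPKM. The groups did not overlap, and WS 120 min replicate 3 was the highest at that time. CSK, TSP9 and PGR5 were lower at 120 and 240 min in both ecotypes. LHCB1.5 was listed at 0 in every library, and LHCB1 and LHCB2 copies are close enough for their reads to be uncertain. The chloroplast messengers in this list come from libraries made by poly(A) selection, which recovers them poorly.

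**Figure D4:**
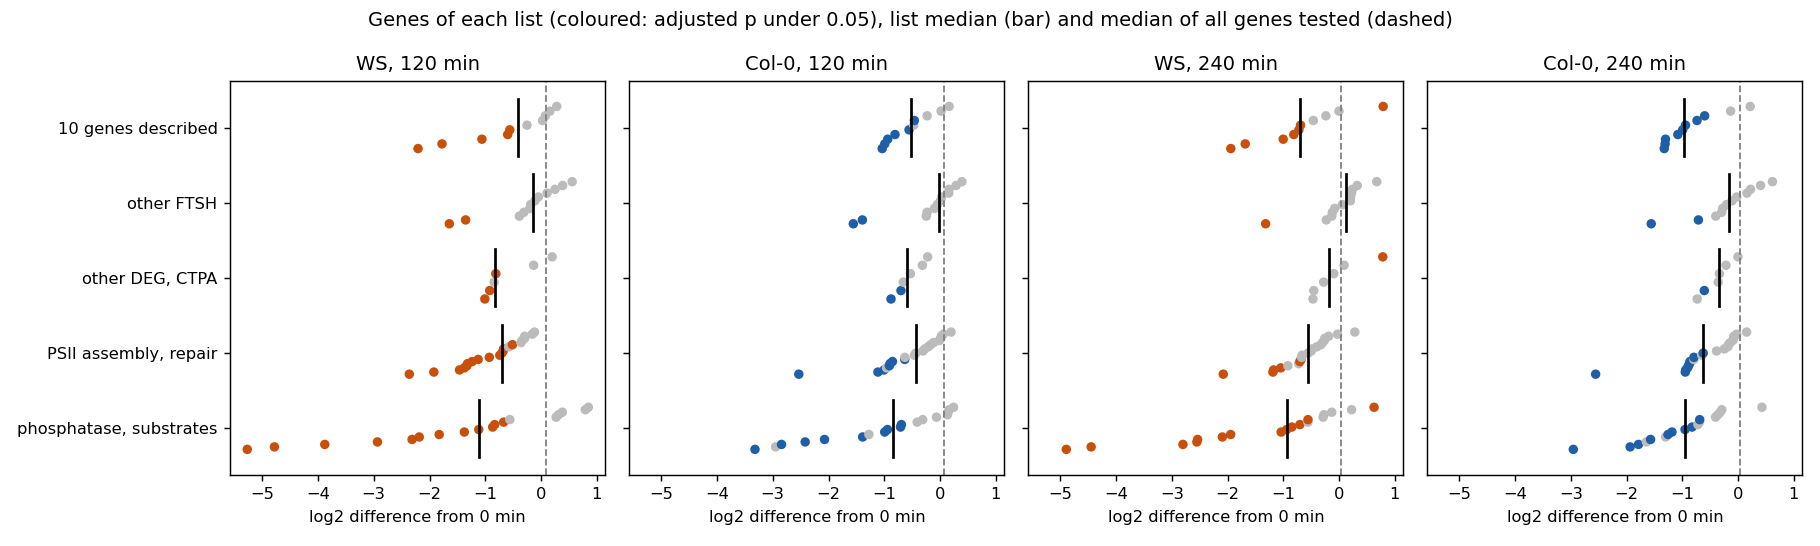
Log2 difference from 0 min (x axis) of every tested gene of each list (rows), at 120 min in WS and Col-0 and at 240 min in WS and Col-0. Coloured points have an adjusted p under 0.05, black bars are list medians and the dashed line is the median of all genes tested. The medians of the 10 genes lie at -0.41, -0.52, -0.71 and -0.97 in the 4 panels from left to right.

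Over the 12 group means of log2(RPKM + 1), pairs among the 9 genes other than PPH1 had Pearson r of -0.0931 to 0.983, and the 9 pairs with PPH1 had r of -0.72 to -0.144. Pairs within FTSH1, FTSH5 and FTSH8 had r of 0.926 to 0.961, pairs within DEG1, STN8, PSB27 and LQY1 had 0.857 to 0.983, STN7 had 0.861 with DEG1, and FTSH2 had at most 0.758 with any other. Outside the lists, the genes most alike over the 12 means were AT3G50685 to PSB27 (r = 0.994), PSBX to LQY1 (0.992), CTF2A to DEG1 (0.992), HGL1 to STN7 (0.982), MCA1 to STN8 (0.981), AT5G20220 to FTSH8 (0.9747), ABCI21 to FTSH1 (0.971), KCS10 to FTSH5 (0.967), AT3G04020 to PPH1 (0.955) and AT5G24710 to FTSH2 (0.931). These are the highest of 13817 genes and carry no test.

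The 250 bases before each gene's start were searched on both strands for 4 short motifs. The G-box CACGTG, the evening element AAATATCT and the CCA1-binding site AAAAATCT were in none of the 10 windows, against 6.49, 4.79 and 6.69% of the windows of 27442 genes. The I-box GATAAG was in 2 of the 10, those of STN7 and LQY1, against 12.3% of all windows. The windows of FTSH8, STN8, PPH1 and LQY1 overlapped another gene (AT1G75700 for LQY1), so they are not wholly intergenic.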

How the data were processed

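The deposited values are RPKM per gene. Per the labels and methods, the authors made poly(A)-selected libraries, read them single-end over 50 bases, trimmed the reads (Trimmomatic 0.32, with FastQC as quality check), aligned them with STAR 2.3.0e (genome TAIR10) and obtained read numbers with featureCounts. No source used here gives the strand setting or the annotation release. The table holds 37336 genes, and 0 named sample columns were left unused. Whole reads were recovered from the RPKM steps (at least 99.8% of values tested lay within 0.1 of a whole read), giving 7.35 to 41.7 M reads in genes per library (median 28.6 M, where M is mega). Minutes were taken from the sample titles, since another label gives the time differently.

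Differences were tested with limma 3.58.1 (R 4.3.3) on log2(RPKM + 1) over the 12 groups together, with a variance trend, for 13817 genes with at least 1 reading above 7 RPKM, and p-values were adjusted by Benjamini-Hochberg within each of 24 comparisons. A gene is called at an adjusted p under 0.05. Errors and p-values rest on 1 spread per gene, pooled over the 3 libraries of each of the 12 groups (24 residual degrees of freedom) and moderated by limma. They do not measure the spread of the compared groups alone. Fewer cells of a type and less RNA per cell cannot be told apart in leaf RNA. Alternatives were a pseudocount of 0.1, other filters or none, TPM and median of ratios scaling, each ecotype alone, a block for the replicate number, voom on recovered reads, leaving out libraries or plants, and leaving out 4 libraries together, the last chosen after seeing the data. The main fit had no term for plant, so repeated leaves of a plant counted as independent libraries. Plant entered only through the replicate number, in the block, the fits with a plant left out and the changes by plant. Of 90 same-numbered pairs, 49 had a correlation of deviations above 0.1. Their correlations ran from -0.43 to 0.65, with a mean of 0.135. By replicate number the mean ran from -0.00066 in Col-0 replicate 1 to 0.202 in Col-0 replicate 3. Pairs of different numbers in an ecotype had a mean of -0.067. The deviations are taken from the mean of the 3 libraries of a group, so a positive mean for same numbers forces a negative one here. The 2 means are therefore no test of pairing by plant. The 10 genes and the other lists were chosen with earlier results of these data known. The genes named are the 10, the 4 of each other list with the smallest adjusted p over the comparisons with 0 min, and for each of the 10 the gene outside the lists with the highest Pearson r over the group means. PBCP is named besides for its ratio to STN8. The authors' deposited table is the only source of values. Sequences were read from RefSeq's TAIR10.1 with biopython 1.88, and the tests were tried on simulated data.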

Additional observations from a re-analysis of the deposited data

Results flagged for a closer look

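The changes of PPH1 from 0 min had opposite signs in the ecotypes at 3 times, with all 3 plants of WS above and all 3 of Col-0 below their own 0 min library. Within an ecotype, the change of Col-0 at 120 min was called by limma (adjusted p = 0.039), and the others at these times were not. At 15 min the plants changed by 0.32, 0.23 and 0.38 in WS and by -0.08, -0.21 and -0.45 in Col-0 on the log2 scale, a difference between ecotypes of 0.557. At 60 min the difference was 0.401, and at 120 min it was 0.742, with plant changes of 0.54, 0.29 and 0.01 in WS and of -0.26, -0.37 and -0.76 in Col-0. Tested by limma's interaction term over all genes, none of these was called (adjusted p = 1.0 at 15 min, 0.81 at 60 min and 0.4 at 120 min). The plants of one ecotype share the way they were grown and handled, and the part of this in the difference was not tested. The 3 times were picked by a rule from the genes and times described here. How many other genes meet that rule was not counted. All 3 rest on the same 0 min libraries, so they are not separate observations. At 240 min all plants of both ecotypes lay above their own 0 min library. The changes were then 0.46, 1.09 and 0.82 in WS and 0.09, 0.54 and 0.01 in Col-0. At 30 min the Col-0 plants went both ways (0.05, -0.34 and -0.01).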

How the results depend on the processing

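Of 36 calls for the 10 genes, 10 held in all 9 fits that left out 1 of their own libraries or plants and in all 10 other alternatives, 20 held in those 10 alternatives, and none (0) reversed. The number called in WS at 60 min (1) was 0 with no filter, with each ecotype alone and without the 4 libraries set apart, and 2 with TPM and with voom. In Col-0 at 60 min (1) it was 0 with each ecotype alone. From 60 to 120 min in WS (3) it was 1 with no filter or each ecotype alone and 0 with TPM or voom, and in Col-0 (1) it was 0 with no filter, TPM or each ecotype alone and 2 with median of ratios scaling. From 120 to 240 min it was 2 in WS (1) without the 4 libraries, where PPH1 was lost and FTSH1 and FTSH8 were gained, and 1 with each ecotype alone, where FTSH8 (-0.75, adjusted p = 0.036 by limma) took the place of PPH1, and it was 1 in Col-0 (3) with each ecotype alone. With the replicate number as a block it was 2 in WS from 120 to 240 min, with FTSH8 added (-0.75, adjusted p = 0.029 by limma), and 2 in Col-0 from 60 to 120 min, with FTSH1 added (-0.80, adjusted p = 0.046), the FTSH5 call in Col-0 at 240 min was lost (-0.60, adjusted p = 0.062), and the block changed no other call. With 1 library or plant left out, the counts against 0 min in WS ranged over 0 to 2 at 60 min, 4 to 5 at 120 min and 3 to 8 at 240 min, and in Col-0 over 0 to 1, 2 to 6 and 3 to 7. The steps ranged in WS over 0 to 4 from 60 to 120 min and 0 to 1 from 120 to 240 min, in Col-0 over 0 to 1 and 0 to 3, and between ecotypes at 0 min over 0 to 1. The causes of these shifts were not tested. WS 0 min replicate 1 has the fewest reads, 7.35 M.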
